A study of Mus musculus with 2 samples.

Results

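B cells that held RNA of Ighd, the constant region of the IgD heavy chain, or of Fcer2a, the low-affinity IgE receptor CD23, were picked from single-cell RNA libraries of mouse bone marrow. They numbered 1431 of the 29952 cells that passed filtering, out of 34099 deposited. A cell was taken when it had at least 200 genes, at most 25% mitochondrial RNA molecules (unique molecular identifiers, UMIs), at least 2 UMIs of the B cell receptor signal chains Cd79a and Cd79b together, and at least 1 UMI of Ighd and Fcer2a together. It also had to hold fewer than 2 UMIs of the surrogate light chain genes Igll1 and Vpreb1, fewer than 10 of Jchain, which antibody-secreting cells carry, and 0 of Siglech, a plasmacytoid dendritic cell gene, and Cd3e, a T cell gene. These 9 genes chose the cells, so their levels are given below as a description and support nothing. The cells are called gated B cells here, and the 1509 cells that met every other condition but had 0 UMIs of Ighd and Fcer2a are called the other B cells.

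Both groups were male mice of the Wild type genotype and of a strain labelled C57B/6, called young in the labels. The ND group ate normal chow and the HFD group a diet with 60% fat, in each case for 16 weeks, and marrow RNA was read on the BD Rhapsody whole-transcriptome system beside oligonucleotide-tagged antibodies. There was 1 library per diet, and the labels give neither the number of mice in a library nor a sort, so no difference between the diets was tested and diet, mouse and preparation cannot be told apart. All intervals are 95% intervals for counting error only, and those of ratios also treat the UMIs of a cell as independent.

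B cell development runs in the marrow from pro-B and pre-B cells, which rearrange their receptor genes with Rag1 and Rag2, to immature B cells that show IgM. Cells that leave for the spleen and lymph nodes gain IgD, CD23, the complement receptor Cr2 (CD21) and high MHC class II, and as mature follicular B cells they circulate and return to the marrow. IgM and IgD are spliced from the same primary transcript, so IgD RNA is made by B cells before they are fully mature as well.

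After filtering, the ND library held 14302 cells with 115208703 UMIs and the HFD library 15650 cells with 116005621 UMIs. The gated B cells held 2264368 UMIs in 645 ND cells and 2626143 UMIs in 786 HFD cells, with medians of 2387 and 2347.5 UMIs and 9.65% and 9.47% mitochondrial UMIs per cell. The libraries shared 329 cell indices, 1 of them among the gated B cells. The gated cells were 4.51% of the filtered ND cells (interval 4.18 to 4.86%) and 5.02% of those of HFD (interval 4.69 to 5.38%), intervals that overlap. Levels below are counts per 1000000 (CPM) of the UMIs summed over the cells of a population in a library.

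The label mature B cell held for only some of the gated cells. Of the 5 genes given as its markers, Ighd was read in 97.2% of the gated cells in both libraries and Fcer2a in 41.1% of ND and 40.6% of HFD cells, both by construction. Ms4a1, which encodes the surface protein CD20, was read in 65.4% and 64.5% of the gated cells, in 29.4% and 32.6% of the other B cells, and in 0.0428% and 0.167% of the cells without Cd79a and Cd79b UMIs. Cd22, a sialic acid-binding inhibitory receptor, was read in 61.2% and 62.6% of the gated cells against 33.9% and 32.3% of the other B cells, and Fcmr, the IgM Fc receptor, in 61.1% in both libraries against 24.5% and 26.8%. After each cell was thinned to 1000 UMIs, the shares in gated cells were 52.2% and 51.4% for Ms4a1, 36% and 40.6% for Cd22 and 38.4% and 41.2% for Fcmr, and in other B cells 23% and 24.5%, 20.2% and 17.9%, and 15.4% and 14.8%. The 3 markers outside the gate therefore lay well above the other B cells at equal depth in both libraries. This comparison kept the mixed cells described below, which carried RNA of other lineages. Without them on either side, Cd22 and Fcmr were still at least 1.5-fold higher in the gated cells of both libraries, but Ms4a1 was not.

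Genes of younger B cells were read in many of the same cells. Rag1, a subunit of the recombinase that cuts receptor gene segments, had UMIs in 23.1% of ND and 23.4% of HFD gated cells, against 0.282% and 0.334% of cells without Cd79a and Cd79b UMIs. Cd93, a surface protein of immature B cells that other marrow cells carry too, had UMIs in 35.2% and 34.2% of the gated cells, and 23.7% and 22.2% of the cells without Cd79a and Cd79b. Vpreb3, an endoplasmic reticulum protein of pre-B and immature B cells, had UMIs in 62.6% and 66.4% of the gated cells and 0.505% and 0.621% of the cells without Cd79a and Cd79b. Sox4, a transcription factor needed in early B cells, had UMIs in 36.6% and 40.1% of the gated cells. Cells without Cd79a and Cd79b carried Sox4 RNA too, with 14057 and 12955 UMIs over 11693 ND and 12567 HFD cells. The gate therefore held immature as well as mature B cells by these genes.

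Promoters of a mature and an early B cell gene from this set are shown because each holds the motif of a B lineage transcription factor. The sequences are the 250 bases before the transcription start in RefSeq (build GRCm38.p6), read 5′ to 3′ on the gene's strand, with the match in capitals. Cd22 lies on the minus strand at chr7:30879029-30879278, and Vpreb3 on the plus strand at chr10:75948050-75948299. Of 16 genes looked up, 12 were in the RefSeq table, and Ighd, Ms4a1, Cd79b and Egr3 were not among them.
Cd22: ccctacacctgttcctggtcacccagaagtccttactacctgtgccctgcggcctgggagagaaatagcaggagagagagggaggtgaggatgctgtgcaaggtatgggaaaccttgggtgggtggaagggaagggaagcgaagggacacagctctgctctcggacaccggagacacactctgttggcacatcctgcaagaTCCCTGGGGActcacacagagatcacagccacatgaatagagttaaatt
Vpreb3: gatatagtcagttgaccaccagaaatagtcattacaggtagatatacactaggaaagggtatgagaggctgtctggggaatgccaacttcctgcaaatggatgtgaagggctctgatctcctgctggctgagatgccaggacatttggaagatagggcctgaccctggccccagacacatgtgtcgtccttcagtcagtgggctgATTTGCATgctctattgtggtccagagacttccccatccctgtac
The capitals in Cd22 match the palindromic motif of the B cell factor EBF1, which equals its own reverse complement and which 0.779% of the 32851 promoters of this length hold, from 49 to 40 bases before the start. Those in Vpreb3 match the octamer ATTTGCAT, bound by POU factors such as POU2F2 and searched on both strands, which 1.60% of promoters hold, from 45 to 38 bases before the start. Neither motif was found in the same window of Fcer2a, Fcmr, Cd79a, Cr2 or Rag1, and a match is a description of the letters only.

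How far a cell had matured by these genes followed the number of Ighd and Fcer2a UMIs in it. Cells with 1 such UMI, just inside the gate, were 34.1% of the ND and 34.9% of the HFD gated cells. Their level of H2-Aa, an MHC class II chain, was 300 CPM in ND and 248 CPM in HFD, and that of Vpreb3 1793 and 1805 CPM. The other B cells, just outside the gate, held 204 and 169 CPM of H2-Aa and 821 and 876 CPM of Vpreb3, but 33.0% and 37.7% of them carried RNA of other lineages as well, so no direction is read from these sums. In cells with over 5 such UMIs, H2-Aa stood at 3892 and 4029 CPM and Cr2 at 307 and 285 CPM, against 13.4 and 9.81 CPM of Cr2 at 1 UMI. Rag1 went the other way, with 368 and 344 CPM at 1 UMI and 1.39 and 32.4 CPM above 5, as did Cd93, with 451 and 421 CPM at 1 UMI and 65.3 and 44.1 CPM above 5. The order over the bins was alike in both libraries, as the plot of 5 genes against Ighd and Fcer2a UMIs shows.

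**Figure D1:**
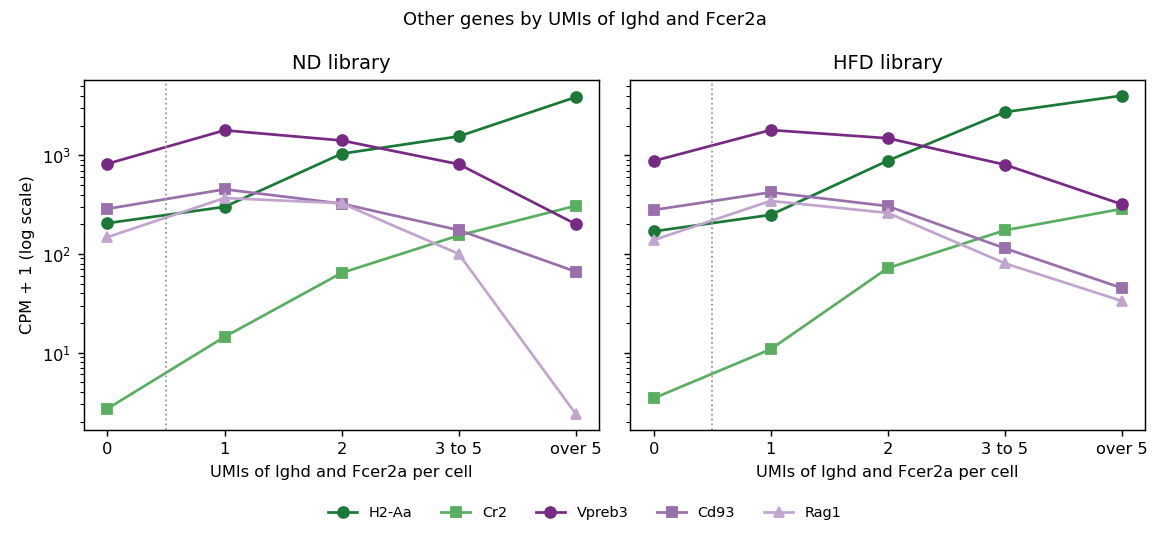
Level (CPM + 1, log scale) of 2 genes of mature B cells (H2-Aa, Cr2, green) and 3 of early B cells (Vpreb3, Cd93, Rag1, purple) against the number of Ighd and Fcer2a UMIs per cell, in the ND and the HFD library; points left of the dotted line are the other B cells. From 1 to over 5 UMIs, H2-Aa went from 300 to 3892 CPM in ND and from 248 to 4029 CPM in HFD, and Rag1 from 368 to 1.39 and from 344 to 32.4 CPM.

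Clustering of the 1431 cells without their immunoglobulin genes gave 10 clusters, which describe the set and are no test of it. Cluster 1 (188 ND and 257 HFD cells) was follicular B-like, with Gimap3, Icosl, H2-Eb1, H2-Aa, Fcer2a and Cr2 among its leading genes. It held 2255 and 2502 CPM of Ighd, 1206 and 1057 CPM of Fcer2a, and 0 UMIs of Rag1 in both libraries. Cluster 2 (144 and 178 cells) was pre-B and immature B-like, led by Rag1, Il2ra and Sox4. It held 915 and 1055 CPM of Rag1, 706 and 788 CPM of Cd93 and 2932 and 3123 CPM of Vpreb3, with 0 and 2.45 CPM of Fcer2a. Clusters 1 and 2 thus sat at opposite ends of the maturation genes, and together they held 29.1% and 22.3% of the ND and 32.7% and 22.6% of the HFD gated cells.

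Other clusters were not named by the marker lists. Cluster 3 (94 and 108 cells) held 3258 and 3136 CPM of Ms4a1, with 1193 and 1342 CPM of Tnfrsf13c, the receptor of the survival factor BAFF, 1047 and 1165 CPM of Vpreb3, and 530 and 472 CPM of Fcer2a. Cluster 5 (46 and 67 cells) also held high Ms4a1, at 2408 and 2941 CPM, but 44.9 and 76.2 CPM of Fcer2a and more Vpreb3, at 2444 and 2560 CPM. Cluster 4 (55 and 66 cells) was led by genes of dividing cells, with 1472 and 1649 CPM of Mki67 and 1787 and 1952 CPM of Vpreb3. Cluster 7 (28 and 12 cells) held 2016 and 1175 CPM of Fcer2a and 5846 and 6814 CPM of H2-Aa, close to or above cluster 1, and 0 UMIs of Cd93 and Rag1, together with 856 and 705 CPM of Cd83, an activation marker, and 363 and 940 CPM of Egr3, a factor induced by receptor signals. Cluster 9 (19 cells in each library) was led by Ccl5, Il2rb and Trbc2, genes best known from T and NK cells.

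Clusters 6, 8 and 10 were marked by RNA of other lineages. Cluster 6 (44 and 48 cells) held 2911 and 8940 CPM of the neutrophil gene S100a8 and 1707 and 600 CPM of the basophil protease Mcpt8, at medians of 11473 and 9558 UMIs per cell. Cluster 8 (20 and 18 cells) held 1516 and 1183 CPM of the macrophage complement gene C1qc and 1353 and 9259 CPM of the haemoglobin gene Hbb-bt, and cluster 10 (7 and 13 cells) 743 and 647 CPM of Ace, a gene of patrolling monocytes. Scrublet, which calls doublets from simulated cell pairs, marked 29.5% and 37.5% of cluster 6, 40% and 22.2% of cluster 8 and 28.6% and 30.8% of cluster 10, and 0% of clusters 1 to 5 and 7 in both libraries. Gated cells with over 10 UMIs summed over 94 markers of other lineages are called mixed cells below, a limit set after the data were seen. They were 107 ND cells (16.6% of the gated cells, 13.8 to 19.7%) and 123 HFD cells (15.6%, 13.2 to 18.4%), and 538 and 663 gated cells remained without them. Mixed cells were not confined to clusters 6, 8 and 10. The monocyte gene Lyz2 had 64 UMIs in cluster 1 in ND, above the 52 in all gated ND cells without mixed cells. Values of clusters 1 and 2 below therefore keep any mixed cells in them.

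**Figure D2:**
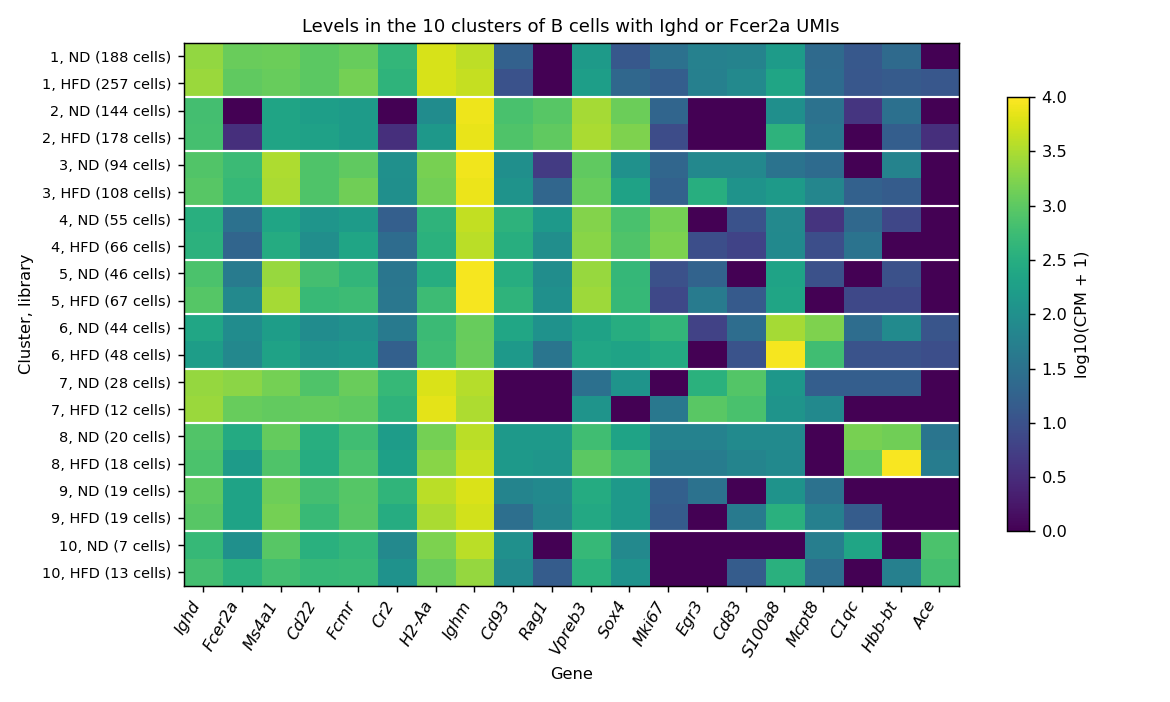
Levels of 20 genes (log10 of CPM + 1, colour) in each of the 10 clusters of gated B cells, with the ND and HFD rows of a cluster next to each other. Rag1 was 0 in cluster 1 and 915 and 1055 CPM in cluster 2, and S100a8 was highest in cluster 6.

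The ratio of IgM to IgD RNA differed between the clusters, which is a description only, since Ighd set the gate. Over all gated cells, there were 5.2 Ighm UMIs for each Ighd UMI in ND and 4.87 in HFD. In cluster 1 this ratio was 1.80 and 1.77, in cluster 2 it was 12.4 and 11.1, in cluster 3 it was 9.97 and 8.31, and in cluster 5 it was 11.6 and 9.93. The ratio of the follicular B-like cluster was thus the lowest of these 4 in both libraries, with Ighd at 35.7% (33.9 to 37.6%) and 36.1% (34.6 to 37.7%) of the sum of Ighm and Ighd UMIs. Cluster 7 was not among these 4 and had a lower ratio still, with 3568 and 3211 CPM of Ighm beside 2321 and 2467 CPM of Ighd.

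Heavy chain classes are given as a description, since a gate on Ighd, which switched cells lose, leaves few switched cells. Among cells with at least 3 heavy chain UMIs and no tie, Ighm had the most in 90.3% of 632 ND cells (interval 87.8 to 92.5%) and in 92.1% of 761 HFD cells (interval 90.0 to 93.9%), and Ighd in 9.65% and 7.75%. A switched class led in 0 of 632 ND cells and in 1 of 761 HFD cells. The ND count allows a share of up to 0.475% at 3 counts, or 0.582% by the exact interval. Ighm also led in 97.8% and 98.1% of the cells without Cd79a and Cd79b that had 3 heavy chain UMIs. Lambda light chain genes led in 11.9% of 631 ND cells (interval 9.46 to 14.7%) and in 9.72% of 761 HFD cells (interval 7.71 to 12.1%), and Igkc in the rest. In the other B cells lambda led in 18.0% of 488 and 14.4% of 644 cells. At least 3 UMIs of both light chain types were read in 55.3% and 54.8% of the gated cells, in 32.8% and 30.9% of the other B cells and in 3.46% and 5.56% of cells without Cd79a and Cd79b that had 3 light chain UMIs. With a minimum of 10 UMIs of each, the gated share was 12.6% in ND and 11.0% in HFD. Iglc2 and Iglc3 are near-identical, so reads may be split between them, and the variable segments were too sparse to rank, with 93 and 72 UMIs of Ighv genes in all.

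Set against the other B cells, gated cells had more RNA of MHC class II and follicular genes in both libraries, with and without mixed cells. Of 7572 genes with at least 100 UMIs, 520 (6.87%) were at least 1.5-fold higher in the gated cells of both libraries and 792 (10.5%) at least 1.5-fold lower, and the median log2 ratio was -0.04 in ND and -0.06 in HFD. All 10 follicular B genes of the list were higher, Ighd and Fcer2a by construction. Of 14 measured genes of MHC class II and costimulation, 12 were higher, with a list median of 2.72 in ND and 2.76 in HFD. H2-Aa stood at 204 CPM in other and 1813 CPM in gated ND cells, a log2 ratio of 3.15 (3.04 to 3.26), and at 3.42 (3.32 to 3.53) in HFD. The invariant chain Cd74, which guides class II molecules, had log2 ratios of 2.72 and 2.94, and Ciita, the class II master regulator, 3.06 and 3.09. Gated cells thus carried several times the class II RNA of the other B cells, and without mixed cells on either side the H2-Aa ratio was still 2.85 and 2.77.

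Cr2 had the highest ratio by the lower of the libraries, with 7 UMIs in other and 325 in gated ND cells (1.7 and 144 CPM) and 13 and 321 in HFD (2.44 and 122 CPM), log2 ratios of 6.40 and 5.65. Trim7, Gimap3, a GTPase of lymphocyte survival, Gpr174, a lysophospholipid receptor, H2-DMb2, Icosl, a costimulatory ligand, H2-Eb1 and Cxcr5, the follicle homing receptor, completed the 8 highest, with log2 ratios between 3.19 and 5.2. Without mixed cells on either side Cr2 still had 6 and 270 UMIs in ND and 13 and 276 in HFD, and Gimap3 19 and 326 in ND and 29 and 458 in HFD. Btla and Cd22, inhibitory receptors of B cells, were among 9 of the 14 measured genes of inhibitory receptors and phosphatases that were higher, and Btla had log2 ratios of 2.33 and 2.29. Rasgrp3, an exchange factor that carries receptor signals to Ras, had log2 ratios of 2.78 and 3.44, and 13 of the 26 measured genes of B cell receptor signalling, Cr2 and the gate genes Cd79a and Cd79b among them, were higher, a count that depended on mixed cells.

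Part of the contrast with the other B cells changed when mixed cells were left out on both sides. Mixed cells were 33.0% and 37.7% of the other B cells against 16.6% and 15.6% of the gated cells. Without them 129 of 4491 genes (2.87%) were at least 1.5-fold higher in the gated cells of both libraries and 105 (2.34%) lower. Of the lists above, 8 of 10 follicular B genes and 11 of 12 class II and costimulation genes were still higher. The receptor signalling list had 4 of 26 higher (Cr2, Bank1, Rasgrp3 and Ptprc) and the inhibitory list 3 of 10 (Cd22, Fcrl1 and Btla). Of 10 measured pre-B and immature B genes, 7 were then lower in gated cells, among them Vpreb3, Rag1, Cd93 and Sox4, and Vpreb3 moved from 0.32 and 0.43 to -0.82 and -0.81. The 8 genes lowest in gated cells were the macrophage adhesion gene Vcam1, the platelet factor gene Pf4, the eosinophil receptor Ccr3, and Itgad, Col14a1, Kcnj10, Abcc3 and Tfec. Vcam1 had log2 ratios of -3.03 in ND and -4.24 in HFD, but without mixed cells it was left with 4 UMIs in the other and 7 in the gated ND cells, and 4 and 10 in HFD. Of the 25 measured genes of the unfolded protein response and secretion, 13 were called lower and 0 higher, but 0 of 21 in either direction without mixed cells. Calr, a chaperone of the endoplasmic reticulum, had log2 ratios of -1.31 and -1.22 that became 0.04 and 0.07 without mixed cells, and Hspa5 (BiP) went from -0.71 and -0.79 to -0.04 and -0.18. Syk, the kinase that starts the receptor signal, moved from 0.68 and 0.73 to -0.29 and -0.25, and Ebf1 from 0.64 and 0.68 to -0.43 and -0.57. Ebf1, a founding B lineage factor, and Syk were therefore not higher in gated cells once mixed cells were removed, while H2-Aa was, and so was Rasgrp3 (1.62 and 2.14).

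Antibody tags gave a readout that the gate did not use. The tag named R-Phycoerythrin after the fluorescent dye, whose target on the cells the labels do not name, had a median of 4 molecules per gated ND cell and 3 per gated HFD cell, against 1 and 1 in the other B cells and in cells without Cd79a and Cd79b. In the follicular B-like cluster 1 its median was 10 in ND (middle 50% of cells 5 to 18) and 8 in HFD (4 to 16), and in cluster 2 it was 1 and 1. Cluster 1 thus stood above cluster 2, the other B cells and the cells without Cd79a and Cd79b by this tag in both libraries. Clusters 3 to 10 were not compared by tag. The CD16_CD32 tag, against Fc gamma receptors, had medians of 11 and 4 in cluster 1, 17.5 and 13.5 in cluster 2 and 20 and 14 in the other B cells. CD105 and CD117 had medians of 0 in gated cells, and Ly-6A_Ly-6E 1 and 0. All 5 tags together had medians of 28 and 18 molecules in gated cells and 47 and 30 in cells without Cd79a and Cd79b, so the tag depth of the HFD library was lower in both populations and differences between the diets in tags cannot be told apart from it.

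**Figure D3:**
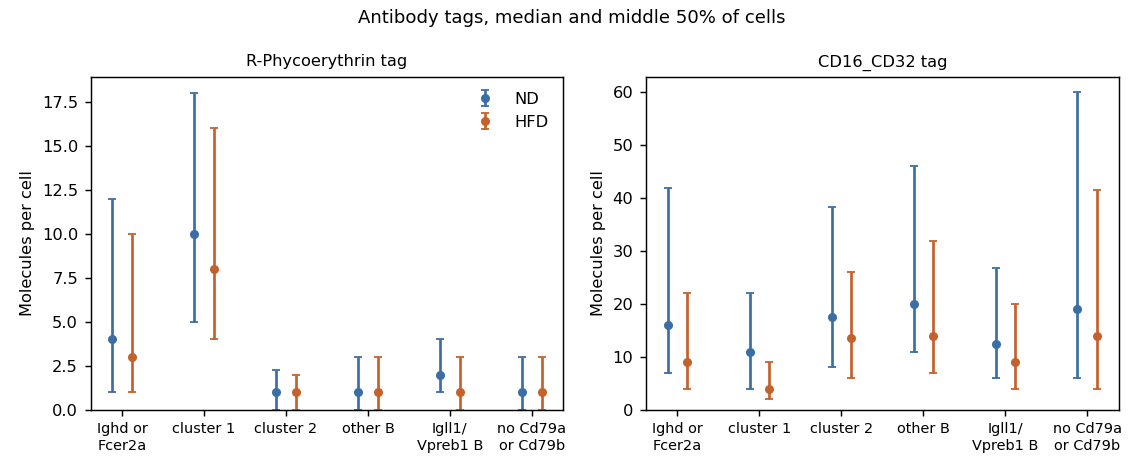
Molecules per cell of the R-Phycoerythrin and CD16_CD32 antibody tags in 6 populations of the ND (blue) and HFD (orange) library; points are medians and bars span the middle 50% of cells. The R-Phycoerythrin median was 10 and 8 in cluster 1 and at most 2 in cluster 2, the other B cells, the Igll1 or Vpreb1 positive B cells and the cells without Cd79a and Cd79b.

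Between the diets, gated B cells had ratios under 1.5-fold for all 5 marker genes, while the 4 highest ratios belonged to Prg2 and Epx, genes of eosinophil granules, and to the Hsp70 chaperone genes Hspa1b and Hspa1a. Among 6574 genes with at least 100 UMIs in gated cells, 128 (1.95%) were at least 1.5-fold higher in the HFD library and 114 (1.73%) at least 1.5-fold lower, with a median log2 ratio of -0.00. Without mixed cells, 80 of 5060 genes (1.58%) were higher and 42 (0.83%) lower. Within cluster 1, 40 of 1654 genes (2.42%) were higher and 27 (1.63%) lower, and within cluster 2, 50 of 1380 (3.62%) and 32 (2.32%). At the minimum of 20 UMIs used for lists, 10.2% of genes were higher and 9.21% lower in cluster 1, and 10.6% and 10.2% in cluster 2. At 100 UMIs both shares over all gated cells were thus smaller without mixed cells, the lower one more. At 20 UMIs the shares were 5.59% higher and 6.06% lower in all gated cells, and 5.93% and 5.56% without mixed cells. Removal also changed which genes reached these limits, and the part of mixed cells in these shares was not tested.

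The marker genes showed small ratios. Ms4a1 stood at 957 CPM in ND and 982 CPM in HFD, a log2 ratio of 0.04 (-0.05 to 0.12), and Cd22 at 426 and 438 CPM, a log2 ratio of 0.04 (-0.09 to 0.16). Fcmr was 515 and 637 CPM, a log2 ratio of 0.31 (0.20 to 0.42), and 0.33 (0.16 to 0.50) within cluster 1. Fcer2a was 393 and 325 CPM, a log2 ratio of -0.27 (-0.41 to -0.14), and Ighd 885 and 945 CPM, but both set the gate. None of these 5 genes reached 1.5-fold in all gated cells.

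Hspa1a and Hspa1b, which encode the stress-inducible Hsp70 chaperones, were far higher in the gated HFD cells. Hspa1a had 21 UMIs in ND and 218 in HFD (9.27 and 83 CPM), a log2 ratio of 3.16 (2.51 to 3.88), and Hspa1b 26 and 348 UMIs (11.5 and 133 CPM), a log2 ratio of 3.53 (2.95 to 4.16). The 2 genes are near-identical copies whose reads may be split or swapped, so they are also given as a sum, which was 20.8 CPM (15.3 to 27.6) in ND and 216 CPM (198 to 234) in HFD, a log2 ratio of 3.38 (2.95 to 3.84). In ND, 14 of 645 gated cells had UMIs of either (2.17%, interval 1.19 to 3.62%), and in HFD 92 of 786 (11.7%, interval 9.54 to 14.2%), with no cell holding more than 37. Most gated HFD cells therefore had no such UMI.

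The likeness of the pair extends to their promoters, printed here because the pair moved together. Both are on the minus strand of chromosome 17, Hspa1a at chr17:34972157-34972406 and Hspa1b at chr17:34959239-34959488 (RefSeq, GRCm38.p6), and the 250 bases before their starts were identical at 247 positions (98.8%).
Hspa1a: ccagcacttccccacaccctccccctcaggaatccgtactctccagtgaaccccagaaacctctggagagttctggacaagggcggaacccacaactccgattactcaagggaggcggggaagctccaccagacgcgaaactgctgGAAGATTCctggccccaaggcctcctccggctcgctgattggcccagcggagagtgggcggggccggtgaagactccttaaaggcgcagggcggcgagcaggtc
Hspa1b: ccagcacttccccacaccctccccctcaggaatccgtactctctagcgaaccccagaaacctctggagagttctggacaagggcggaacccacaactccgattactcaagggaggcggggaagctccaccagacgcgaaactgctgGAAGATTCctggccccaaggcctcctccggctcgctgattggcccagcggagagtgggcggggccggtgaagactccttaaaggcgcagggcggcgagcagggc
The capitals mark GAANNTTC, the core of the heat shock element bound by HSF1 and its own reverse complement, at 104 to 97 bases before both starts. It occurs in 6.69% of the 32851 promoters of this length, and was not found in that window of Cpt1a, Cirbp, Nr4a1, Cd22, Fcmr or Fcer2a.

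Within the gated cells the Hsp70 difference was uneven. In cluster 1 the summed level was 37.6 CPM (21.5 to 61.1) in ND and 337 CPM (289 to 390) in HFD, with UMIs in 2.13% and 16.7% of cells and a log2 ratio of 3.16 (2.42 to 4.0). In cluster 2 it was 0 UMIs in 144 ND cells, which allows up to 9.50 CPM at 3 counts, or 11.7 CPM by the exact interval. The 178 HFD cells of cluster 2 had 5 UMIs, or 12.3 CPM (3.98 to 28.6). Clusters 3, 4 and 5 had HFD levels between 19.1 and 24.5 CPM. The follicular B-like cells of the HFD library thus held more of this RNA than these 4 less mature clusters. The difference between clusters was not tested, and other clusters departed from this order. HFD levels of Hspa1b were 535 CPM in cluster 9 (19 cells), 1724 CPM in cluster 10 (13 cells) and 223 CPM in cluster 1. Cluster 7, close to cluster 1 in Fcer2a and H2-Aa, held 78.3 CPM of Hspa1b and 0 CPM of Hspa1a in 12 HFD cells. Without mixed cells the gated sum was 8.38 and 148 CPM, a log2 ratio of 4.14 (3.31 to 5.11), with 12 ND UMIs in 6 cells. The mixed cells alone held 42.1 and 347 CPM, a log2 ratio of 3.04 (2.53 to 3.59). They carried 310 of the 566 gated HFD UMIs. The ratio was thus as large without mixed cells, but the HFD level was lower, at 148 against 216 CPM. Cells without Cd79a and Cd79b showed a like ratio, 20.4 CPM in ND and 255 CPM in HFD (3.65, 3.58 to 3.72), with UMIs in 4.01% and 19.6% of cells at medians of 4635 and 4233 UMIs, and the other B cells without mixed cells 0.825 and 29.6 CPM. The HFD excess was therefore not confined to gated B cells.

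**Figure D4:**
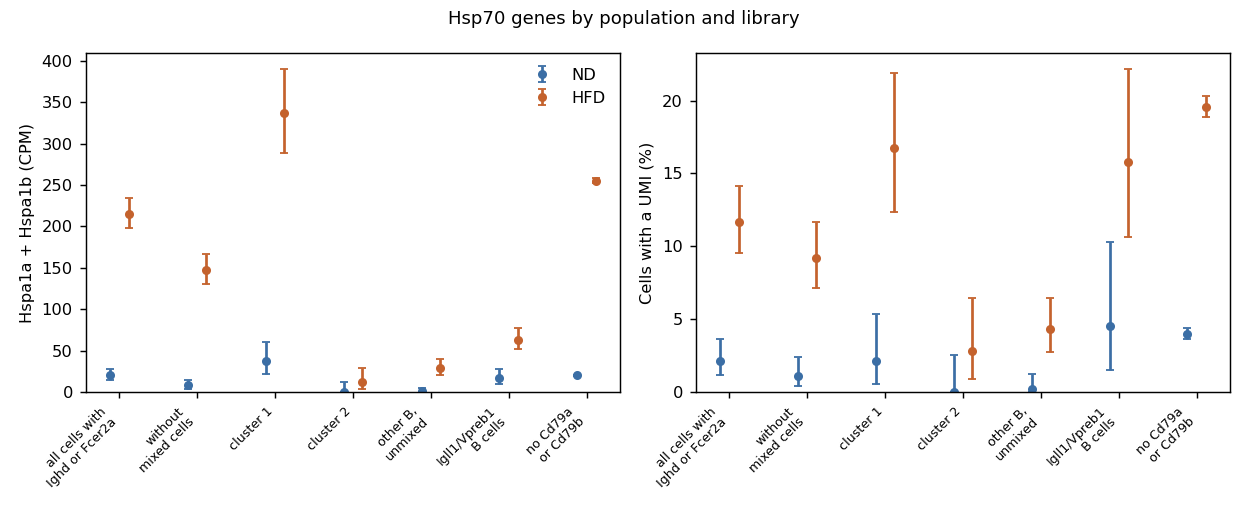
Summed level of Hspa1a and Hspa1b (CPM, left) and share of cells with a UMI of either (%, right) in 7 populations of the ND (blue) and HFD (orange) library, with exact 95% intervals for counting error. HFD points lay above ND points in all 7 populations, at 337 against 37.6 CPM in cluster 1 and 12.3 against 0 CPM in cluster 2.

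Other chaperones had smaller ratios over all gated cells, and more of them were called within the clusters. Of the 20 listed heat shock and chaperone genes, 18 reached 20 UMIs in gated cells, 3 were at least 1.5-fold higher in HFD (Hspa1a, Hspa1b and the co-chaperone Bag3) and 0 lower, and their median log2 ratio was 0.18, against 560 of 10013 genes with 20 UMIs higher (5.59%), 607 lower (6.06%) and a median of -0.01. Dnaja1, an Hsp40 co-chaperone, was 222 and 290 CPM, a log2 ratio of 0.38 (0.22 to 0.55). Hspa8, the constitutive Hsc70, was 598 and 729 CPM, a log2 ratio of 0.29 (0.18 to 0.39). Without mixed cells, 14 of 17 measured genes of the list were above 0, with 2 called higher and 1 lower (Hsf1), against backgrounds of 5.93% higher and 5.56% lower of 8923 genes. In cluster 1, 5 of 14 measured genes were higher (Hspd1, Dnaja1 and Stip1 beside the Hsp70 pair), 0 were lower and the median was 0.39, against the 10.2% of genes given above. In cluster 2, 7 of 13 were higher (Hspa8, Hsp90aa1, Hsph1, Dnajb1, Chordc1, Stip1 and Ahsa1), 0 were lower and the median was 0.63, against 10.6%. Bag3 had 10 and 28 UMIs in all gated cells, and 1 and 2 when mixed cells were removed. Cirbp, the cold-inducible RNA-binding protein, was lower, at 101 CPM in ND and 65.9 CPM in HFD (-0.62, -0.91 to -0.33). It was just short of 1.5-fold, at -0.58, both without mixed cells and in cells without Cd79a and Cd79b. It passed 1.5-fold in cluster 1 (-0.61, -1.24 to 0.01), cluster 2 (-0.79) and the other B cells without mixed cells (-0.85). Rbm3, its relative, was 400 and 350 CPM, a log2 ratio of -0.19 (-0.33 to -0.06). Rbm3 stood at -0.63 in cluster 1 and 0.20 in cluster 2.

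Among genes of fatty acid use, Cpt1a was higher in the HFD library in every set of B cells compared. Cpt1a, the enzyme that commits fatty acids to mitochondrial oxidation, was 125 CPM in ND and 220 CPM in HFD, a log2 ratio of 0.82 (0.61 to 1.03). It was 1.04 (0.76 to 1.31) without mixed cells, 1.53 (0.97 to 2.13) in cluster 1 and 1.04 (0.44 to 1.68) in cluster 2. Both ends of the maturation range thus held more Cpt1a RNA in the HFD library, as did the other B cells without mixed cells (0.91) and cells without Cd79a and Cd79b (0.59). Of 49 listed genes of fatty acid uptake and oxidation, 45 were measured, 4 were higher (Cpt1a, the fatty acid transporter Cd36, Acot1 and Acot9) and 2 lower (Acsl3 and Mgll), with a median of 0.05, against 5.59% of 10013 genes higher and 6.06% lower. Without mixed cells, Cpt1a alone of 39 was higher and Acsl3 and Cpt2 were lower, with 0 and 1 UMIs of Acot1 left. In cluster 1, 5 of 22 were higher (Cpt1a, Hadh, Echs1, Eci1 and Acot2) and Acsl1 was lower, with a median of 0.36, against 10.2% and 9.21%. In cluster 2, Cpt1a alone of 19 was higher, with a median of -0.05, against 10.6% of genes higher. Cd36 was 35.8 and 65.9 CPM, a log2 ratio of 0.88 (0.49 to 1.28), which became 0.40 (-0.12 to 0.93) without mixed cells. Cholesterol and fatty acid synthesis genes had a median of -0.15 over 35 of 40 members, with 1 higher and 4 lower, and of -0.02 without mixed cells. The sterol enzyme Sc5d was lower in both sets, at 30.9 and 18.7 CPM in all gated cells (-0.73, -1.29 to -0.18).

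Receptor signalling genes had small ratios, and a few activation genes larger ones. None of the 28 genes of B cell receptor signalling reached 1.5-fold, and their median log2 ratio was 0.08, with 21 above 0. Rasgrp3 came closest, at 99.8 and 142 CPM (0.51, 0.27 to 0.76), and it passed 1.5-fold without mixed cells (0.64) and within cluster 1 (0.70, 0.38 to 1.03). Of 28 immediate early genes, 27 were measured, and Egr3 and Nr4a1 were higher and Egr1 and Ier3 lower. These counts were near the background of 5.59% of genes higher and 6.06% lower. Egr3 was 34.9 and 61.3 CPM, a log2 ratio of 0.81 (0.42 to 1.22), but -0.58 in cells without Cd79a and Cd79b. It was higher in cluster 3, at 72.8 and 318 CPM, and in cluster 7, at 363 and 940 CPM over 28 and 12 cells, whereas cluster 1 held 56.4 and 54.2 CPM. Nr4a1, an orphan nuclear receptor induced by antigen receptors, was 31.8 and 56.4 CPM (0.83, 0.41 to 1.25), and 1.08 in cells without Cd79a and Cd79b. Its RNA was concentrated in few cells, at 87.0 and 1332 CPM in cluster 7 and 470 and 822 CPM in cluster 10. These had 12 and 13 HFD cells. Cluster 1 held 21.2 and 28.0 CPM of Nr4a1, a log2 ratio of 0.41 (-0.88 to 1.78). Egr1 was 170 and 109 CPM (-0.64, -0.86 to -0.41), but -0.17 without mixed cells.

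No antigen presentation gene listed under class II or class I reached 1.5-fold over all gated cells. MHC class II and costimulation genes had a median log2 ratio of -0.00 over 14 of 15 members, and H2-Ab1 stood at 1820 and 1706 CPM. In cluster 1 none of 14 was called. In cluster 2, whose class II levels were low, H2-Aa, H2-Ab1, H2-Eb1 and H2-DMb2 were higher and H2-Ob and Cd40 lower among 8 measured, against 10.6% and 10.2% of genes. MHC class I and immunoproteasome genes had a median of 0.15 over all 18 members, 16 of them above 0, and 0.15 without mixed cells, where 14 were above 0. In cluster 1, 4 of 18 were higher (H2-Q6, Psmb9, Psmb10 and Nlrc5), against 10.2% of genes. In cluster 2, 3 of 17 were higher (H2-T22, H2-M3 and Psmb8), against 10.6%, and 0 were lower in both clusters. Tap2, which helps load peptides onto class I, was 64.0 and 89.5 CPM (0.48, 0.18 to 0.79), and H2-K1 1226 and 1380 CPM (0.17, 0.10 to 0.24). H2-Q6 and H2-Q7 are close copies and were 0.24 and 0.20.

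Interferon genes differed between the sets with and without mixed cells. Of 51 listed type I interferon genes, 43 reached 20 UMIs, 14 of these were at least 1.5-fold higher in HFD and 0 lower, against 5.59% and 6.06% of genes, and the median was 0.34. Rsad2, an antiviral enzyme, had 12 and 77 UMIs (5.30 and 29.3 CPM), and Ifi204 6 and 43 UMIs. Without mixed cells, Rsad2 had 5 and 12 UMIs and Ifi204 0 and 2, and the list had a median of 0.05 over 33 members, with 5 higher and 3 lower, against 5.93% and 5.56%. In cluster 1 the median was -0.01 over 24 members, with 2 higher and 2 lower, against 10.2% and 9.21% of genes. In cluster 2 it was 0.33 over 18, with 5 higher and 1 lower, against 10.6% and 10.2%. In the other B cells without mixed cells it was 0.39 over 31 members. Ifi213, Ifi214 and Herc6 were called higher both in all gated cells and without mixed cells. Ifi27l2a, an interferon-induced membrane protein, was under 1.5-fold in all gated cells, at 117 and 160 CPM (0.46, 0.23 to 0.69). It passed 1.5-fold without mixed cells (0.60).

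S phase genes had ratios below 0 over all gated cells, but medians above 0 within clusters 1 and 2. All 25 listed genes were measured, 0 of them lay above a log2 ratio of 0, and the median was -0.34, and 1 of them, Gins2, a part of the replicative helicase, passed 1.5-fold (36 and 21 UMIs), against 6.06% of genes. Rrm2, the nucleotide-making ribonucleotide reductase subunit, was 158 and 112 CPM (-0.49, -0.72 to -0.27), and Slbp, which binds histone mRNA, 98 and 67.8 CPM (-0.53, -0.83 to -0.24). Without mixed cells the median was -0.22, with 3 above 0, 0 higher and 3 lower, against 5.93% and 5.56% of genes. In cluster 1 it was 0.10 over 15 measured genes, with 2 higher and 1 lower, against 10.2% and 9.21%. In cluster 2 it was 0.37 over 9, with 3 higher and 0 lower, against 10.6% and 10.2%. Clusters 1 and 2 held at most 30.6 CPM of Mki67, against 1472 and 1649 CPM in cluster 4, for which no list median was taken. Cells thinned to 1000 UMIs gave a median of -0.06, and the summed level was 2547 and 2029 CPM in all gated cells. G2 and M phase genes had a median of 0.09, and the cycling cluster 4 was 8.53% of ND (6.49 to 11.0%) and 8.4% of HFD gated cells (6.55 to 10.6%).

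Several genes with the largest ratios were markers of other lineages. Those among the 94 markers that define mixed cells fall by construction when these cells are left out, so their values without mixed cells are a description. Prg2, the major basic protein of eosinophils, had 73 UMIs in ND and 3280 in HFD gated cells (32.2 and 1249 CPM, log2 ratio 5.28), but 41 and 69 UMIs without mixed cells (0.48). Ear2, of the same granules, went from 55 and 258 UMIs to 2 and 8. The summed level of 8 eosinophil markers was 87.9 and 1453 CPM in all gated cells and 42.6 and 57.8 CPM without mixed cells, that of 12 neutrophil markers 3582 and 9677 CPM and 335 and 476 CPM, and that of 8 basophil and mast cell markers 1750 and 631 CPM and 99.8 and 107 CPM. All 12 neutrophil markers, 8 eosinophil and 8 basophil and mast cell markers had UMIs in gated cells of both libraries. Dntt, the pre-B and progenitor polymerase TdT, stood at 176 and 65 UMIs (-1.65, -2.08 to -1.23), and changed sign without mixed cells, with 30 and 58 UMIs (0.68). The part of mixed cells in genes not recomputed above was not tested.

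Some further genes passed 1.5-fold both in all gated cells and without mixed cells. Tspo, a mitochondrial outer membrane protein, was 44.2 and 86.8 CPM (0.98, 0.63 to 1.33) and 0.79 without mixed cells. Sel1l, an adaptor of endoplasmic reticulum protein disposal, was 36.7 and 66.6 CPM (0.86, 0.48 to 1.26) and 0.99 without them. Rapgefl1 was 42.8 and 76.9 CPM (0.84, 0.49 to 1.21), 0.87 in cluster 2, and 0 and 1 UMI in cluster 1. In cells without Cd79a and Cd79b the log2 ratios were 0.84 for Tspo, 0.06 for Sel1l and -0.13 for Rapgefl1. In the other B cells without mixed cells they were 0.42 (-0.20 to 1.05), -0.45 (-0.96 to 0.06) and 0.42 (0.12 to 0.73). Among lower genes, the lysosomal protease Ctsd was 80.8 and 35 CPM (-1.21, -1.58 to -0.84), with 34 and 16 UMIs left without mixed cells (-1.36). Siva1, an apoptosis-linked adaptor, was 75.1 and 47.2 CPM (-0.67, -1.01 to -0.33) and -0.91 without mixed cells, and Zdhhc4, a palmitoyltransferase, 66.7 and 44.2 CPM (-0.59, -0.96 to -0.24) and -0.78. These 3 were not lower by 1.5-fold in the cells without Cd79a and Cd79b, where their log2 ratios lay between -0.13 and -0.07. In the other B cells without mixed cells the ratios were 0.61 for Ctsd (16 and 28 UMIs), 0.17 for Siva1 and 0.13 for Zdhhc4.

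**Figure D5:**
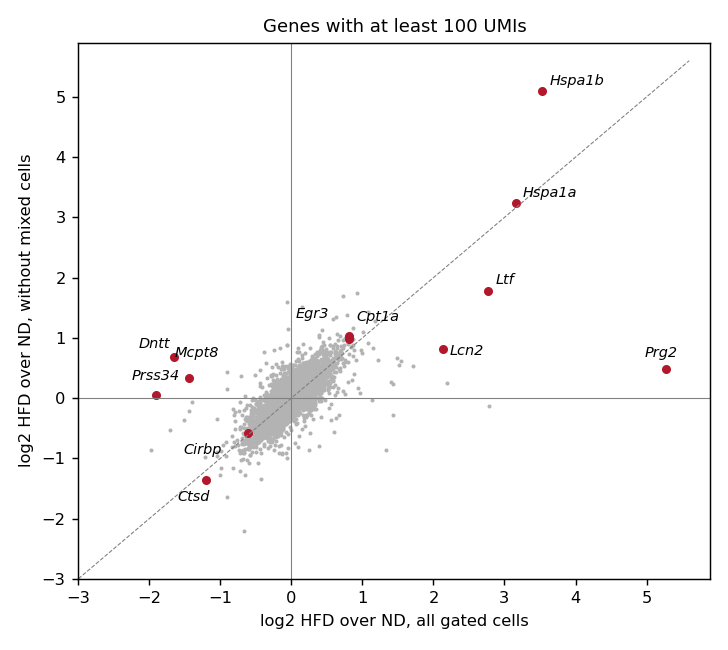
Log2 ratio of HFD over ND in all gated B cells (x axis) against the ratio after mixed cells were left out (y axis), for genes with at least 100 UMIs in all gated cells and 20 without mixed cells; the dashed line marks equal ratios. Hspa1a, Hspa1b and Cpt1a stayed high on both axes, whereas Prg2 went from 5.28 to 0.48 and Dntt from -1.65 to 0.68.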

How the data were processed

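Single-cell RNA and antibody tags of bone marrow cells were read in 1 library per diet with the BD Rhapsody system. The deposited tables hold UMI counts per cell and gene, and per antibody tag, and the authors produced these counts with version 1.9.1 of the BD WTA Rhapsody Analysis Pipeline, per the file headers. Genome build and annotation were not given in the sources used here. Symbols numbered 22229 and 22263, of which 20478 were in both libraries.

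Cells under 200 genes or over 25% mitochondrial UMIs were left out, and the gate was applied to the counts. UMIs were summed per population, given as CPM, and compared as log2 ratios of HFD over ND with exact conditional binomial 95% intervals. Shares have exact Clopper-Pearson intervals, and the limit for a count of 0 is 3 counts. A difference was called at 1.5-fold, with at least 100 UMIs over both libraries for counts over all genes and 20 for members of lists. With 1 library per diet there is no replicate, and no test was made. Doublets were kept, and their removal by Scrublet was an alternative. Clustering used scanpy 1.11.5 with 1500 variable genes, 20 principal components, 15 neighbours and a Leiden resolution of 0.8. Python 3.11.15, numpy 2.4.6, scipy 1.17.1 and matplotlib 3.10.9 were used, and the ratio code was tested on simulated data.

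Named genes were the 12 highest and 12 lowest ratios with at least 200 UMIs, leaving out mitochondrial, ribosomal, haemoglobin, receptor chain and numbered genes and genes under 50% of their CPM in all other kept cells of both libraries, up to 4 of each list, the gate and marker genes, the Hsp70, cold-inducible and haemoglobin genes, the 12 of highest CPM, and the 8 highest and 8 lowest against the other B cells. Others were chosen after their values were seen. The members and lists were chosen with earlier results of these data known. Alternatives were other limits on cells and UMIs, a gate of 2 UMIs, thinning to 1000 UMIs, and, chosen after seeing the data, the removal of mixed cells and values per cluster. A gene of the lists is not reported here.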

Additional observations from a re-analysis of the deposited data

How the results depend on the processing

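No paired analysis was possible because there was 1 library per diet, so no value here carries a replicate error. The share of gated cells was 3.88% in ND and 4.59% in HFD over all deposited cells, 2.97% and 3.27% with a gate of 2 UMIs, 4.16% and 4.62% with at most 10 UMIs of 9 neutrophil, monocyte and haemoglobin genes, and 3.76% and 4.24% without mixed cells. The 128 higher and 114 lower genes became 80 and 42 without mixed cells, 45 and 29 after thinning, 560 and 607 at a minimum of 20 UMIs, 24 and 6 at a minimum of 500, 40 and 27 in cluster 1 alone and 50 and 32 in cluster 2 alone, and the limit on 9 genes left 74 lower. These settings also change how many genes can be tested. Higher genes were 52.9% of those called, 65.6% without mixed cells, 42.0% with a gate of 2 UMIs and 80.0% at a minimum of 500. With a gate of 2 UMIs the list medians were 0.28 for follicular B genes, 0.14 for B cell receptor signalling and 0.10 for MHC class II. In cluster 1 they were -0.022 for immediate early genes, 0.39 for heat shock genes and -0.0095 for type I interferon genes, which had 0.049 without mixed cells. In cluster 2 they were -0.027 for B cell receptor signalling, 0.51 for MHC class II, 0.63 for heat shock genes and 0.18 for cholesterol and fatty acid synthesis. At 10 UMIs of a chain, Ighm led in 92.7% and lambda in 8.99% of ND cells. Among genes called at 1.5-fold with at least 20 UMIs left, the sign changed without mixed cells for the basophil and mast cell markers (median 0.045), C1qb (0.36), Dntt (0.68), Hbb-bt (-0.27), Mcpt8 (0.33), Prg3 (-0.14) and Prss34 (0.045). With 14 to 18 UMIs left it changed for C1qc (0.38), Vcam1 (0.24), Hba-a2 (-0.10) and Ier3 (1.05) too. With the limit on 9 genes it changed for Hba-a1 (-0.24), Hba-a2 (-0.10) and Hbb-bt (-0.46), which that limit counts itself. It changed for S1pr2 (0.74) as a mean over cells and for Vcam1 (0.067) without Scrublet doublets. Except where a setting's own construction shows it, the cause was not tested. Depth limits single genes, since the median gated cell held 2387 UMIs in ND and 2347.5 in HFD.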

Other observations

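Further gene groups are given here by their counts in gated B cells, against 5.59% of genes higher and 6.06% lower. Of 11 listed B1 cell genes, 7 were measured, and Bhlhe41, S100a6 and Cd36 were called higher and 0 lower, with a median log2 ratio of 0.30 (0.47 over 5 members without mixed cells). Of 10 germinal centre genes, 6 were measured, and S1pr2 and Mybl1 were called lower and 0 higher, with a median of -0.27. Without mixed cells 2 were measured and 0 called. S1pr2 had 15 and 8 UMIs in all gated cells, and 0 and 5 without mixed cells. Of 28 B lineage transcription factors, 28 were measured, and Bhlhe41, a factor of B1 cells, was called higher and 0 were lower, with a median log2 ratio of -0.03. Homing and retention genes had a median of 0.00 over 24 members, with Ccr6, a chemokine receptor, called higher. The BAFF axis and survival list had a median of -0.14 over 15 of 19 members, with Bcl2a1d called lower. The unfolded protein response and secretion list had a median of 0.12 over 26 of 28, with Sel1l higher and Asns, the asparagine synthetase, lower. Asns had 39 and 17 UMIs in all gated cells but 0 and 0 without mixed cells. Toll-like receptor genes had a median of 0.13 over 14 of 15 members, with Tlr6 and Ly96, which encodes the TLR4 co-receptor MD-2, higher. Over all genes with 20 UMIs the median was -0.01.

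Circadian clock genes were sparse, with 15 of 20 measured, a median of 0.16, 5 called higher (Per3, Clock, Dbp, Hlf and Bhlhe41) and 1 lower (Cry2), against the same background. Without mixed cells 11 were measured, and Clock, Dbp and Bhlhe41 were called higher and 0 lower, against 5.93% and 5.56% of genes.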
